A study of Sesuvium portulacastrum with 18 samples.

Results

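The transcripts described here stood at least 2-fold higher in shoots of Sesuvium portulacastrum after 24 h in salt than both before salt and after 8 h in it, while their levels at 0 h and 8 h lay close together. There were 51 of them among the 89295 shoot transcripts listed with a normalized level. They were chosen by their measured levels in the same 9 shoot libraries that are described below, so their height at 24 h is a property of the choice and not a finding. Sesuvium portulacastrum is a halophyte, a plant that completes its life on saline ground. Stem cuttings were rooted in hydroponic culture under a 12 h photoperiod, and the seedlings were treated at 15 days. The 0 h group had its medium changed to control medium and was harvested at once, the 8 h group was harvested 8 h after a change to 250 mM NaCl, and the 24 h group 24 h after the same change. Each time had 3 replicate shoot libraries, and roots were sequenced in 9 further libraries. Whether a replicate was 1 plant or several is not stated in the labels, so p-values measure the spread between these libraries.

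In plants, salt acts first by withdrawing water (an osmotic phase) and later by the build-up of Na+ in the shoot (an ionic phase). Halophytes are known for storing Na+ in leaf vacuoles and for balancing the cytoplasm with compatible solutes such as proline. Transcripts that change late can therefore belong to a different part of the response than those that change within hours, which is the question that a 24 h sample beside an 8 h sample addresses. No unstressed plants were harvested at 8 h or 24 h. Time in salt, time since the medium was changed and hour of the day cannot be told apart in these groups. A whole-shoot library also cannot tell more cells of a kind from more RNA per cell. The files name each transcript by an ID alone and pair no ID with a gene, a protein or a sequence, so no function is given for any of them. Defining markers of shoot tissue could not be looked up for the same reason.

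Levels are the deposited normalized CPM, read counts scaled by each library's total and by a factor for its composition (TMM). They are not divided by transcript length. Levels of different transcripts are therefore set side by side only as read abundance. A member had a 24 h mean of at least 5 normalized CPM, a 24 h mean at least 2 times both the 0 h and the 8 h mean, an 8 h mean between 2/3 and 1.5 times the 0 h mean, and all 3 of its 24 h values above all of its 0 h and 8 h values. The level limit left 18025 transcripts. Of these, 232 stood at least 2-fold above 0 h at 24 h, and 138 of those also stood at least 2-fold above 8 h. The limit on 8 h over 0 h took the number to 52, and the absence of overlap took it to 51. The member nearest the fold limit had a smaller ratio (the lesser of 24 h over 0 h and 24 h over 8 h) of 2.00, and the nearest transcript outside had 1.996. At the level limit the neighbours were 5.34 and 4.92 normalized CPM, and at the lower limit on 8 h over 0 h they were 0.668 and 0.643. At the upper limit on that ratio they were 1.28 and 1.59. The fold limit cut through a dense stretch of values: 13 members had a smaller ratio between 2 and 2.2, and 35 transcripts that met every other condition had one between 1.8 and 2.

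Most members were of modest abundance, with 30 of the 51 under 20 normalized CPM at 24 h, and most were under 3-fold by the smaller ratio. Their 24 h means ran from 5.34 through a median of 17.3 to 381 normalized CPM, with 7 members at 50 or more, 14 between 20 and 50, 14 between 10 and 20, and 16 between 5 and 10. Their 0 h means ran from 0.675 through 6.57 to 75.8 normalized CPM, and their 8 h means from 0.821 through 5.30 to 70.3. The ratio of the 24 h mean to the 0 h mean had a median of 2.57 and that to the 8 h mean a median of 2.95. The smaller of these ratios was at least 4 in 5 members, between 3 and 4 in 6 and under 3 in 40. The mean estimated count behind a 24 h level ran from 60 to 4225 per library, with a median of 199, and 5 members had fewer than 10 counts in at least 1 library.

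**Figure D1:**
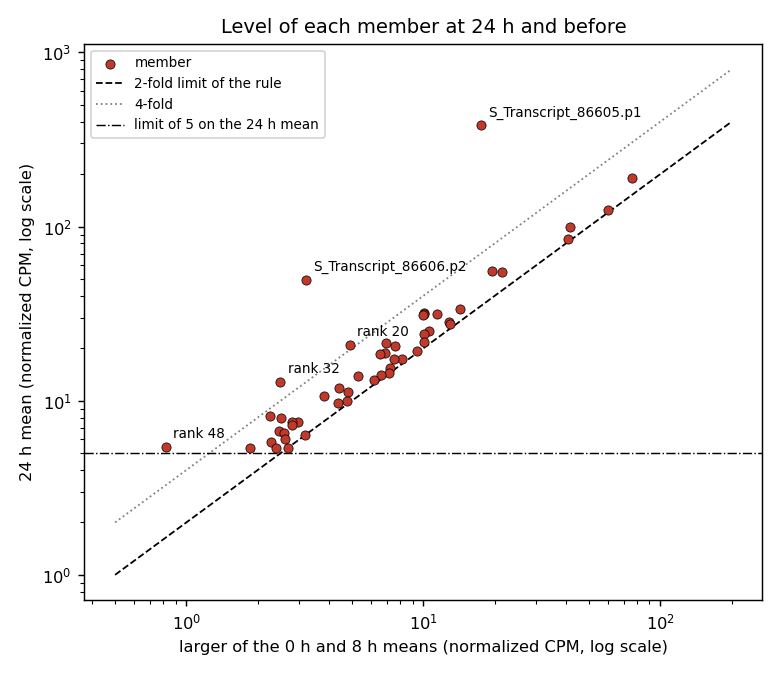
Each point is 1 of the 51 members, with its 24 h mean (normalized CPM, log scale) against the larger of its 0 h and 8 h means (normalized CPM, log scale); lines mark the 2-fold and 5 CPM limits of the choice and a 4-fold difference. The 2 labelled by ID lie farthest above the 2-fold line, with 24 h means of 381 and 49.1 normalized CPM, the other members above the 4-fold line are labelled by their rank in 24 h mean, and 40 members have a smaller ratio under 3.

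A pair of transcripts with successive numbers changed most. S_Transcript_86605.p1 had 8.41, 32.9 and 11.2 normalized CPM in the 0 h libraries, 8.13, 6.05 and 29.7 in the 8 h libraries, and 189, 431 and 522 in the 24 h libraries (replicates 1, 2 and 3 in that order throughout). The lowest 24 h library was 5.75 times the highest library of the other times, so the times did not overlap. A single library stood high at each earlier time, replicate 2 at 0 h and replicate 3 at 8 h. Its log2 fold change was 4.44 (SE 0.65) for 24 h against 0 h and 4.73 (SE 0.65) for 24 h against 8 h, from edgeR's quasi-likelihood model. With 1 library left out, the first ran from 4.13 (without 0 h replicate 1) to 5.29 (without 0 h replicate 2). The second ran from 4.36 (without 8 h replicate 2) to 5.76 (without 8 h replicate 3).

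S_Transcript_86606.p2 had 2.60, 5.38 and 1.63 normalized CPM at 0 h, 0.863, 0.590 and 5.28 at 8 h, and 23.9, 55.0 and 68.5 at 24 h. Its high libraries at 0 h and 8 h were the same as those of S_Transcript_86605.p1, and its order among the 24 h libraries was the same. The log2 fold changes were 3.95 (SE 0.61) for 24 h against 0 h and 4.47 (SE 0.63) for 24 h against 8 h. With 1 library left out, the former ran from 3.58 (without 0 h replicate 3) to 4.58 (without 0 h replicate 2). The latter ran from 4.03 (without 8 h replicate 2) to 6.07 (without 8 h replicate 3). In the 24 h libraries S_Transcript_86605.p1 had 7.92, 7.85 and 7.62 times the counts of S_Transcript_86606.p2, and over all 9 libraries this ratio ran from 3.23 to 10.3, widest where S_Transcript_86606.p2 had few counts. Whether the 2 IDs are pieces or copies of 1 gene is not given by the files, and reads shared by near-identical transcripts can be divided between them.

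Of the other 3 members with a smaller ratio of at least 4, none was abundant. They were not named by the rule for IDs and are described by their rank in 24 h mean. The member of rank 20 had 3.50, 5.87 and 5.33 normalized CPM at 0 h, 3.02, 3.61 and 5.06 at 8 h, and 18.9, 20.9 and 22.5 at 24 h. Its coefficient of variation was 25.3% at 0 h, 26.9% at 8 h and 8.90% at 24 h, with log2 fold changes of 2.08 (SE 0.21) against 0 h and 2.44 (SE 0.21) against 8 h. That of rank 32 had 1.502, 2.56 and 2.52 at 0 h, 2.37, 1.92 and 3.18 at 8 h, and 15.4, 12.1 and 10.8 normalized CPM at 24 h, with log2 fold changes of 2.53 (SE 0.24) and 2.38 (SE 0.24). In both, every 24 h library stood more than 3-fold above every earlier one. In the member of rank 48 the levels were 0.901, 0.827 and 0.296 normalized CPM at 0 h, 1.22, 0.590 and 0.651 at 8 h, and 7.39, 5.72 and 3.11 at 24 h. It rested on a mean of 7.67 counts per library at 0 h, and its fold changes carried wider errors, 3.04 (SE 0.45) against 0 h and 2.74 (SE 0.43) against 8 h on the log2 scale.

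The other members with a 24 h mean of at least 50 normalized CPM, of rank 2 to 7, had smaller ratios from 2.06 to 2.87, where the median over all members was 2.53. At rank 2 the levels were 62.6, 78.8 and 85.9 normalized CPM at 0 h, 55.4, 59.9 and 95.6 at 8 h, and 235, 154 and 183 at 24 h. Replicate 3 was its highest library at both earlier times, and it was still below every 24 h library. Its log2 fold changes were 1.34 (SE 0.21) for 24 h against 0 h and 1.47 (SE 0.21) for 24 h against 8 h. Next in level, the member of rank 3 had 60.5, 59.1 and 61.0 normalized CPM at 0 h, 38.3, 36.4 and 61.1 at 8 h, and 146, 113 and 114 at 24 h. At 8 h only its replicate 3 stood at the 0 h level, and the others were lower. The member of rank 4 was the most even: 43.6, 44.2 and 37.6 normalized CPM at 0 h, 31.6, 28.9 and 27.8 at 8 h, and 93.9, 97.9 and 105 at 24 h. Its log2 fold changes were 1.25 (SE 0.10) against 0 h and 1.77 (SE 0.10) against 8 h. By contrast, the member of rank 5 showed no dip at 8 h, with 29.5, 39.3 and 49.9 normalized CPM at 0 h, 34.2, 42.6 and 44.98 at 8 h, and 81.8, 80.7 and 93.2 at 24 h. Rank 6 had the largest smaller ratio of these, with 16.7, 20.8 and 20.7 normalized CPM at 0 h, 14.7, 15.9 and 18.7 at 8 h, and 61.3, 58.6 and 47.2 at 24 h. Rank 7, with a smaller ratio of 2.53, had 18.02 to 24.1 normalized CPM at 0 h, 13.1 to 27.4 at 8 h and 45.3 to 66.8 at 24 h.

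Summed over all 51 members, the level was 451, 589 and 547 normalized CPM in the 0 h libraries, 410, 417 and 559 in the 8 h libraries, and 1596, 1686 and 1841 in the 24 h libraries. Part of the height of the 24 h sums came from S_Transcript_86605.p1 alone, and their order depended on it. Without it the sums were 442, 556 and 536 at 0 h, 402, 411 and 529 at 8 h, and 1406, 1255 and 1319 at 24 h. As a share of all estimated counts the members held 0.0502 ± 0.00607% at 0 h, 0.0513 ± 0.00886% at 8 h and 0.162 ± 0.00987% at 24 h (SD, n = 3 each). The median member had 6.46 ± 0.774 normalized CPM at 0 h, 5.16 ± 0.690 at 8 h and 16.2 ± 0.638 at 24 h (SD of the library medians, n = 3 each).

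**Figure D2:**
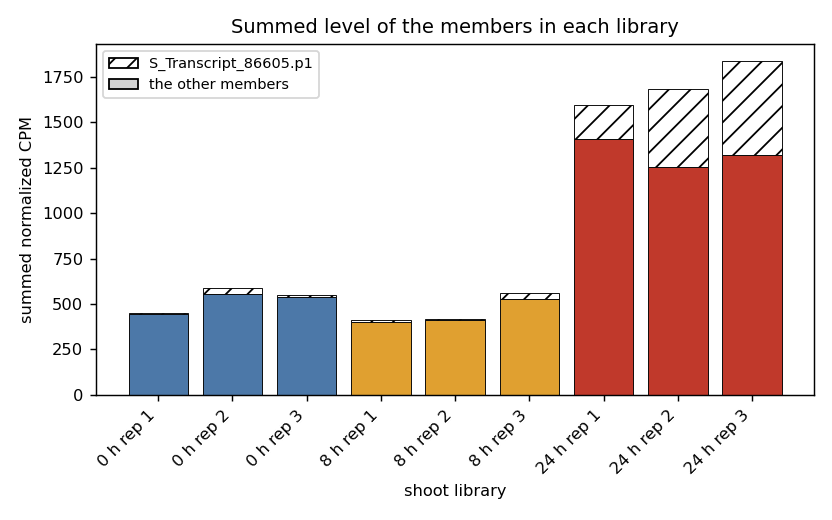
Bars give the summed normalized CPM of the 51 members in each shoot library, with the hatched part held by S_Transcript_86605.p1. The 24 h bars reach 1596 to 1841 normalized CPM and those of 0 h and 8 h 410 to 589; without the hatched part the 24 h bars lie between 1255 and 1406.

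The members had larger coefficients of variation among replicates than the transcripts over the level limit as a whole. Their median coefficient of variation was 24.4% at 0 h, 24.3% at 8 h and 15.0% at 24 h. Over the 18025 tested transcripts that passed the level limit it was 12.1%, 8.45% and 10.3% at the same times. The choice bounds the 8 h mean by the 0 h mean and keeps all earlier values below those of 24 h. The transcripts over the limit were not matched to the members in level, so these values are given as a description. At 24 h the coefficient ran from 2.52% in the member of rank 24, with 18.4, 18.9 and 17.98 normalized CPM, to 49.0% in the member of rank 42, with 6.34, 4.25 and 11.2.

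Part of this spread was shared by library. At 0 h, 27 members were highest in replicate 2 and 33 were lowest in replicate 1, while 20.7% and 45.3% of all transcripts over the level limit did the same. At 8 h, 29 members were highest in replicate 3, against 36.2% of all. Both of these held at once, highest in 0 h replicate 2 and in 8 h replicate 3, for 16 members (31.4%). The same was true of 8.02% of all transcripts over the limit. These libraries were picked from the members' own values, so nothing beyond the separate counts is read from the joint one. S_Transcript_86605.p1 and S_Transcript_86606.p2 were among the 16. The median log2 deviation of the members from their group mean was -0.21, 0.16 and 0.10 in the 0 h libraries, -0.13, -0.06 and 0.19 in the 8 h libraries, and 0.04, -0.05 and -0.04 in the 24 h libraries. At 24 h, 20, 14 and 17 members were highest in replicates 1, 2 and 3, against 35.5%, 29.2% and 35.3% of all, and 10, 21 and 20 were lowest there, against 37.6%, 33.4% and 29.0% of all. What made 0 h replicate 2 and 8 h replicate 3 higher for these transcripts was not tested.

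**Figure D3:**
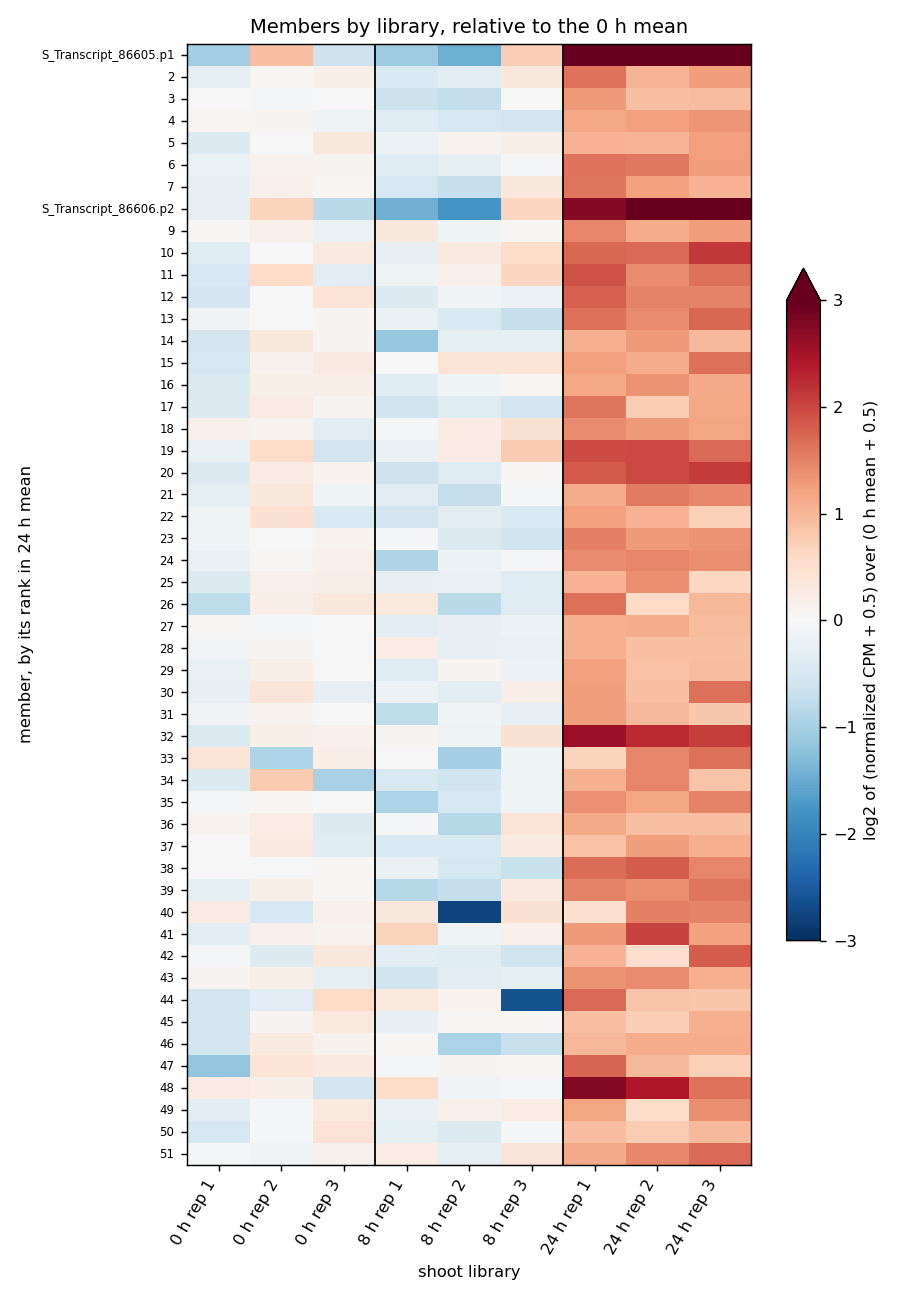
Colour gives the log2 ratio of each member's normalized CPM in a library to its own 0 h mean, with 0.5 added to both and the scale closed at 3; rows are the 51 members by rank in 24 h mean and columns are the 9 shoot libraries. All rows are raised in the 3 columns of 24 h, and the rows of S_Transcript_86605.p1 and S_Transcript_86606.p2 are darkest. Among the libraries of the same time, 27 members are highest in 0 h replicate 2 and 29 in 8 h replicate 3.

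Calls from a model fitted to all transcripts are given beside the share called over all of them. All 51 members passed the filter on low counts, among 40220 tested transcripts. A transcript was called at an adjusted p under 0.05 from edgeR's quasi-likelihood test. For 24 h against 0 h, 46 members were called higher, where 2.77% of all tested transcripts were. For 24 h against 8 h, 49 were called higher, where 15.2% of all were. In both contrasts together, 46 were called higher, where 1.84% of all were. The choice used these contrasts and both share the 24 h libraries, so nothing is read from these counts. The members' median log2 fold change was 1.37 for 24 h against 0 h (range 1.00 to 4.44) and 1.59 for 24 h against 8 h (range 1.097 to 4.73), while the median over all tested transcripts was 0.01 and -0.01.

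The members called in 1 contrast or in none had uneven replicates. The members of rank 40 and 44 were called in neither 24 h contrast. The first of these had 3.60, 1.90 and 3.33 normalized CPM at 0 h, 3.88, 0 and 4.27 at 8 h, and 4.31, 9.28 and 9.13 at 24 h. Its lowest 24 h value was 1.01 times its highest earlier one. The second had 1.60, 1.99 and 4.15 at 0 h, 3.31, 2.80 and 0 at 8 h, and 9.51, 5.03 and 4.96 normalized CPM at 24 h. Each had a count of 0 in 1 library at 8 h, which allows up to 3 counts, or 0.250 CPM in replicate 2 and 0.239 CPM in replicate 3 by counting error alone. The other 49 members had counts in every library. Both had a log2 fold change above 1 with a large error, 1.37 (SE 0.68) and 1.33 (SE 0.67) for 24 h against 0 h. The 3 members called against 8 h alone, of rank 26, 34 and 47, had log2 fold changes against 0 h of 1.21 (SE 0.35), 1.24 (SE 0.39) and 1.38 (SE 0.41). In the member of rank 34 the 0 h values were 3.50, 8.69 and 2.22 normalized CPM, so that replicate 2 came near its 24 h values of 10.6, 14.1 and 9.13.

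Between 8 h and 0 h the members were held near each other by the choice, and 2 of the 51 were called, both lower at 8 h, where 25.8% of all tested transcripts were called in either direction. These were the member of rank 4, described above, with a log2 fold change of -0.52 (SE 0.10), and the member of rank 13, with -0.49 (SE 0.15). The member of rank 13 had 9.21, 10.01 and 10.6 normalized CPM at 0 h, 8.48, 7.08 and 5.93 at 8 h, and 32.2, 27.2 and 34.2 at 24 h. Fits that left out 1 library called 1 to 5 members: 4 without 0 h replicate 1, 4 without 8 h replicate 1, 5 without 8 h replicate 3, 2 without 0 h replicate 3 or 24 h replicate 2, and 1 without any other library. Over all tested transcripts, those fits called 3067 to 4637 higher and 4819 to 5945 lower. The 8 h mean lay below the 0 h mean in 38 members. Over all members the median log2 fold change was -0.27, with a range of -0.61 to 0.34. Scaled by library size alone, which moved the median of all tested transcripts by 0.24, the members' median was -0.01.

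How far membership rested on single libraries was described by leaving each out of the choice. With 1 library left out, between 41 and 69 transcripts met the same conditions, and 33 to 50 of these were among the 51. Of the 51, 15 met the conditions in all 9 leave-outs. Called higher in both 24 h contrasts in all 9 fits that left out a library were 36 members, among them those 15. The share of all tested transcripts so called is not given. The choice used these contrasts and libraries, so nothing is read from this count. The members of rank 2, 4, 6, 9, 10, 12, 20 and 32 were among the 15, while S_Transcript_86605.p1 met the conditions in 7 of the 9 leave-outs and S_Transcript_86606.p2 in 6.

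The same measure was then taken in libraries that took no part in picking the transcripts. Earlier results of these data were already known when the conditions were set, so these libraries are not wholly independent of the choice. The conditions were applied to 6 libraries, 2 per time. The transcripts they picked were measured in the 3 libraries of the remaining replicate number, which are known to share only that number. With replicate 1 held out, 43 transcripts were picked, and 25 of them (58.1%, Clopper-Pearson 95% interval 42.1 to 73.0%) were at least 2-fold higher at 24 h than at both earlier times in the held-out libraries. With replicate 2 held out the number was 25 of 78 (32.1%, interval 21.9 to 43.6%), and with replicate 3 held out it was 23 of 79 (29.1%, interval 19.4 to 40.4%). Among all transcripts over the level limit in the choosing libraries the shares were 2.23%, 0.806% and 1.18% in the same order. The 24 h library merely stood above both of the others in 37 of 43, 69 of 78 and 74 of 79 picked transcripts, against 33.6%, 32.3% and 29.7% of all. The picked transcripts' median ratio was 2.15, 1.72 and 1.66 in the held-out libraries, smaller than the 2.45, 2.41 and 2.38 in the libraries that chose them, and the median of all transcripts was 0.876, 0.900 and 0.881. Each time had 1 held-out library, so there is no test of these differences. The intervals treat transcripts as independent, which they are not, and transcripts picked in 1 step were often picked in another.

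**Figure D4:**
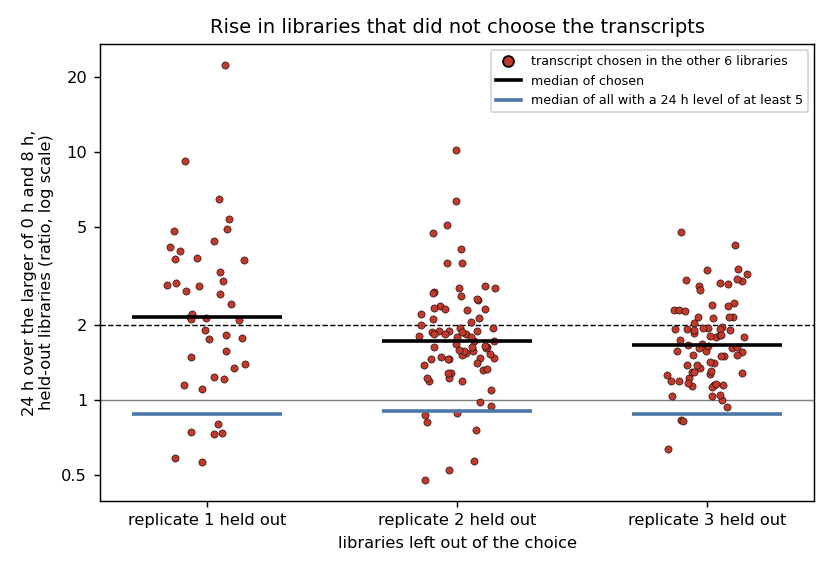
Each point is a transcript picked from 6 libraries. Its height is the ratio of the 24 h level to the larger of the 0 h and 8 h levels (log scale). The ratio is from the 3 libraries that took no part in picking it. Black lines are medians of the picked transcripts and blue lines medians of all transcripts over the level limit. The medians of the picked transcripts are 2.15, 1.72 and 1.66, under those in the libraries that chose them, and those of all transcripts lie under 1.

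The number in an ID was the only other property of the members that the files give. The members held 4 pairs whose numbers lie within 5 of each other, 8 members in all, and none shared a number with another member. Besides S_Transcript_86605.p1 and S_Transcript_86606.p2, the members of rank 32 and 13 also had successive numbers, those of rank 2 and 7 lay 2 apart and those of rank 20 and 10 lay 4 apart. The count of the first over that of the second ran from 0.163 to 0.537, from 2.98 to 4.56 and from 0.345 to 0.737 over the 9 libraries. The ID ends in p1 in 43 members (84.3%) and in 86.2% of tested transcripts, in p2 in 6 members and in p3 in 2. The sources used here do not say what the numbers and endings stand for.

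**Figure D5:**
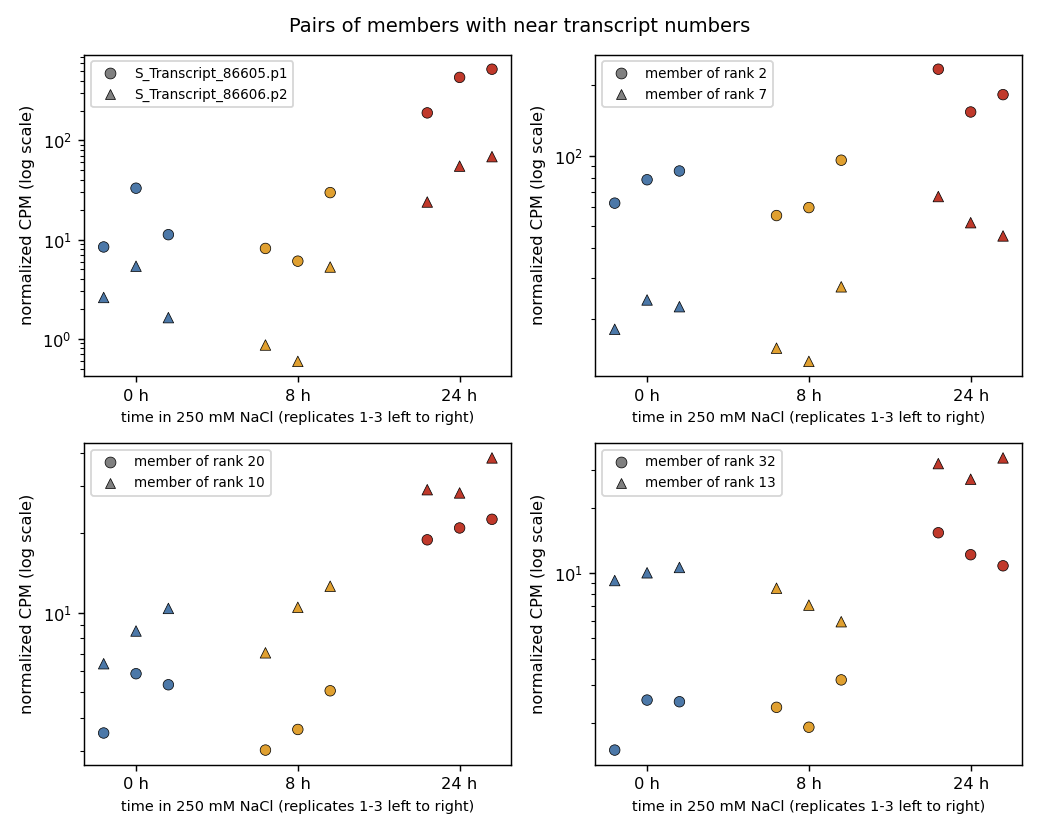
Normalized CPM (log scale) of both members of each pair with near numbers, as circles and triangles, in the 9 shoot libraries, with replicates 1 to 3 from left to right at each time. In the first pair, S_Transcript_86605.p1 and S_Transcript_86606.p2, both members are high in 0 h replicate 2 (32.9 and 5.38) and in 8 h replicate 3 (29.7 and 5.28) among the earlier libraries.

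Transcripts with numbers near a member's also tended to be higher at 24 h. There were 88 tested transcripts, not members, within 5 numbers of 35 of the members. For 24 h against 0 h, 26 of them were called higher (29.5%) and 3 lower, with a median log2 fold change of 0.51, while 2.60% of the 40081 other tested transcripts were called higher. For 24 h against 8 h, 51 were called higher (58.0%), with a median of 0.95, against 15.0% of the others. For 8 h against 0 h, 32 were called lower (36.4%) and 8 higher, with a median of -0.45, against 15.09% lower among the others. With library size alone as the scaling, 25 were called higher and 3 lower for 24 h against 0 h. For 24 h against 8 h, 44 were called higher and 7 lower, and for 8 h against 0 h 28 lower and 13 higher. Over all 40220 tested transcripts, 1066 were then called higher for 24 h against 0 h and 4346 for 24 h against 8 h. Those called lower for 8 h against 0 h numbered 4108. In the main fit these 3 numbers were 1115, 6099 and 6081. Nearness to a transcript that was higher at 24 h went with a higher level at 24 h in general. Of 1693 tested transcripts within 5 numbers of another one called higher for 24 h against 0 h, 292 (17.2%) were called higher too. These near transcripts are set apart from the members by the choice itself, and no test of the difference was made. The member of rank 14 averaged 12.8 normalized CPM at 0 h, 8.91 at 8 h and 28.3 at 24 h, and the most abundant of the near transcripts, next to it in number, averaged 3442, 1709 and 4671 at the same times.

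Since the reads of 1 gene may be spread over several IDs, each member was also summed with all listed transcripts within 5 numbers of it, a step chosen after seeing the data. Such transcripts existed for 47 members. The sum met all the conditions of the choice for 18 of the 47, and for 22 of the 51 when the 4 members without near numbers were counted as they stood. Both members of a near-numbered pair are counted, though their sums share IDs, and S_Transcript_86605.p1 and S_Transcript_86606.p2 have the same sum. The 24 h sums lay above every 0 h and 8 h sum for 43 of the 47, and the 24 h mean sum was at least 2-fold above both for 22. In 15 of the 47 the 8 h sum was under 2/3 of the 0 h sum, outside the limit that the members met alone. The median ratio of sums was 1.91 for 24 h over 0 h and 2.80 for 24 h over 8 h, and the member held a median of 44.9% of the 24 h sum. Whether near numbers mark 1 gene is not given by the files, so the sums describe IDs and not genes.

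For the size of the set, the 51 members made up 0.283% of the 18025 transcripts over the level limit. The mirrored conditions, which ask that both earlier means be at least 2 times the 24 h mean and set the level limit at 0 h, picked 116 shoot transcripts, 0.636% of 18241. In root libraries the conditions used for shoot picked 33 transcripts, 0.189% of 17495, from a separate set of IDs that cannot be matched to those of the shoot.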

How the data were processed

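Transcript abundance was measured by RNA sequencing in 18 libraries, 9 of them from shoots. Libraries were made with a directional kit, per the labels' protocols. Tools listed in the submitters' processing notes are Trimmomatic, kallisto 0.45 and edgeR 3.40.1, and the role of each is not stated. The sources used here do not state how transcripts were assembled or whether strand entered the counting. The authors deposited estimated counts per transcript, as whole numbers, and a normalized signal per transcript, described by its file as CPM. Rebuilt from the counts as CPM divided by TMM factors over all listed transcripts, this signal matched the deposited values to within rounding. No column was left without a sample (0 of them).

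Membership was computed from the deposited normalized signal of all 9 shoot libraries. The members and the conditions were chosen with earlier results of these data known. Tests used the estimated counts in R 4.3.3 with edgeR 4.0.16: filterByExpr by group (minimum count 10), which kept 40220 of 99653 shoot transcripts, TMM scaling, and 1 quasi-likelihood model of the 9 shoot libraries with 1 mean for each time. Tests were two-sided, with Benjamini-Hochberg adjustment over all tested transcripts of a contrast. Standard errors were taken from F, as the absolute log2 fold change over its square root. The biological coefficient of variation was 0.169. The fit was tested on simulated data with known changes. DESeq2 1.42.0 was an alternative, as were other scalings, no filter, a stricter threshold, other limits of the choice, a block for the replicate number and leaving out each library. No 2 libraries held identical values.

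The IDs printed are the 2 members with the largest log2 fold change in each 24 h contrast, among called members whose lower group averaged at least 10 counts. Both contrasts gave the same 2. Library totals ran from 10050233 to 15068602 estimated counts, and 3 counts equal 0.199 to 0.299 CPM. Count limits cover counting error only. The held-out intervals are binomial over the picked transcripts and do not cover the spread between libraries. Since the files hold no names, no gene list was used and no sequence is shown.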

Additional observations from a re-analysis of the deposited data

How the results depend on the processing

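The number of members moved most with the limits of the choice. It was 147 with a 24 h level of at least 1, 234 at 1.5-fold, 11 at 3-fold, 134 with no limit on 8 h over 0 h and, in a step chosen after seeing the data, 22 for members summed with near-numbered IDs. It was 35 to 56 under other levels, scalings, group medians or with overlap allowed, and 41 to 69 with 1 library left out. Near-equal numbers did not mean the same transcripts. With group medians, 32 of the 49 were among the 51, and with library size alone 42 of the 53 were. The members called higher for 24 h against 0 h numbered 38 to 46 with 1 library left out, and for 24 h against 8 h 48 to 49. Of the 41817 to 42343 transcripts tested in those fits, 616 to 959 and 5025 to 6468 were called higher. In the main fit these numbers were 1115 and 6099 of 40220. The choice used these contrasts, so nothing is read from the members' counts. The members called for 8 h against 0 h numbered 0 with library size alone, 1 at adjusted p under 0.01 in edgeR and 1 to 5 with 1 library left out. Library size alone called 8743 of all 40220 tested transcripts higher and 4108 lower in that contrast. The median log2 fold change ran from 1.29 to 1.44 for 24 h against 0 h, from 1.57 to 1.74 for 24 h against 8 h and from -0.39 to -0.12 for 8 h against 0 h with 1 library left out. With library size alone the median for 24 h against 8 h was 1.33 and for 8 h against 0 h -0.014, where the medians of all tested transcripts moved to -0.27 and 0.24. The held-out shares for replicates 1, 2 and 3 were 72.4%, 44.2% and 33.3% at a level of at least 10. At 1.5-fold in the held-out libraries they were 69.8%, 66.7% and 64.6%. The shares over all transcripts are not given at these settings, and a lower fold limit raises a share by itself. With a replicate block the members called were 43 for 24 h against 0 h, 48 for 24 h against 8 h and 1 for 8 h against 0 h. Over all 40220 tested transcripts, the block called 735 higher for 24 h against 0 h and 5590 higher for 24 h against 8 h. For 8 h against 0 h it called 3759 higher and 5500 lower. Deviations of same-numbered libraries had correlations of -0.19 to 0.08, and the main model did not use the numbers as a pairing. Such values cannot show that the libraries were unpaired, since a weak shared effect could give them too. The cause of these movements was not tested. S_Transcript_86605.p1 and S_Transcript_86606.p2 kept their direction and their calls in both 24 h contrasts under each of 14 alternatives. Depth limits 5 members, S_Transcript_86606.p2 among them, that had fewer than 10 counts in some library.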
